A study of Mus musculus with 8 samples.

Results

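The peaks described here were the 1000 regions of mouse colon crypt chromatin in which histone H3 trimethylated at lysine 9 (H3K9me3) stood highest over input chromatin in WT mice. They were chosen from 53761 peaks, of which 53216 lay on autosomes and 28510 of those held at least 10 reads of the WT input library. For each of the 28510 peaks, the log2 value of the WT input was subtracted from the mean log2 ChIP value of the 3 WT libraries, and the 1000 highest were kept. This difference is called enrichment below. The other 27510 peaks that could have been chosen served for comparison.

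The study compared WT mice (genotype label wildtype) with mice carrying a Vil-Cre mediated KO of Smarcad1, all of C57BL/6 background. Each genotype had 3 H3K9me3 ChIP libraries, made from whole crypt isolates of the colon with antibody ab8898, and 1 input library. Per the study's methods all mice were males, the floxed Smarcad1 exons were removed by the Tg(Vil1-cre)997Gum transgene, which is active in intestinal epithelium, and the KO came from 1 of 2 targeted mouse lines. Ages were not given in the sources used here. A crypt isolate can retain some lymphocytes and stromal cells, in which this Cre is not active, and a peak value cannot tell fewer marked cells from less mark per cell. The labels do not say whether libraries of 1 genotype came from separate animals, so p-values measure the spread between these libraries.

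H3K9me3 is the mark of constitutive heterochromatin. In mouse cells it is laid down at many retroelements by the methyltransferase SETDB1, which is brought to DNA by TRIM28 and the KRAB zinc finger proteins that bind TRIM28. Genes that encode these zinc finger proteins are themselves known to carry the mark over their terminal exons. SMARCAD1 is a chromatin remodeler of the SNF2 family and a partner of TRIM28. ChIP values cannot show the identity of the cells. Of 20 genes of colonic epithelium listed for this purpose, 2 had any peak and none had a chosen one.

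Stretches of 200 bases from the middle of 5 chosen peaks are given as examples, and cannot show which bases of a peak carried the mark. The 5 were the 3 peaks of highest WT enrichment, a peak called higher in KO and the peak called lower in KO with the smallest p. The call of the higher peak depended on WT2 and KO1. The stretches are from the RefSeq copy of GRCm38, plus strand, 5′ to 3′, and capitals mark CpG dinucleotides, the sites of DNA methylation.
Highest enrichment, chr9:12137750-12137949: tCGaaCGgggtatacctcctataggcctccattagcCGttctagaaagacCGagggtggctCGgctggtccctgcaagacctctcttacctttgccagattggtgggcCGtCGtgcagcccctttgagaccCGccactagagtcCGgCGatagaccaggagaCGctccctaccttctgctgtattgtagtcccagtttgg
Second highest, chr4:150879575-150879774: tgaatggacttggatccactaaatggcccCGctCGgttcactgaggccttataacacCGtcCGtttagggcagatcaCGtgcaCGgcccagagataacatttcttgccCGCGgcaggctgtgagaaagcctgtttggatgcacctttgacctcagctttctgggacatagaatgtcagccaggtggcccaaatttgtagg
Next highest, chr7:18384650-18384849: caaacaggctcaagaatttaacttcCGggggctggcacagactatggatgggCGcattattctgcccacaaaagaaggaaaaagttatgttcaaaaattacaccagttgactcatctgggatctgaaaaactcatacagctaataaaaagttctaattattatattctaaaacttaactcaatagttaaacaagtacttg
Higher in KO, in the gene Fat1, chr8:44955125-44955324: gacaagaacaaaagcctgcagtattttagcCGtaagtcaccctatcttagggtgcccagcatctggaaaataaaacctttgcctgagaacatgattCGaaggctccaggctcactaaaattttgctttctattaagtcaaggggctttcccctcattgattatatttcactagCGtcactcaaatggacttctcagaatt
Lower in KO, downstream of the gene Scd4, chr19:44326400-44326599: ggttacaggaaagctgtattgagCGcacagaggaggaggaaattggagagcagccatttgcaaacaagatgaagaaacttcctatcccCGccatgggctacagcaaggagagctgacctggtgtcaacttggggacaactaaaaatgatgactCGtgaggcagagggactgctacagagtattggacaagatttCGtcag
The first stretch held 11 CpG sites and a GC content of 57.5%, the second held 8 sites and 53% GC, and the next held 2 sites and 35.5% GC. The 3 stretches thus differed in base composition. Over whole peaks, the median CpG density was 8.89 per kb in the chosen peaks against 6.67 per kb in the others, at a median GC content of 42.8% against 42%. The median share of bases in lower case in the reference, which marks repeats, was 42.7% against 35.6%. Among peaks of at least 10 kb, the chosen had a lower median CpG density than the others, 6.71 against 11.2 per kb. Their median GC content was 40.1% against 44.3%, and their lower-case share 37.8% against 20.9%.

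The choice fixed the WT values, which are given as a description. WT enrichment ran from 1.498 to 2.71 log2 units in the chosen peaks, with a median of 1.68, against a median of 0.61 in the other peaks. The 5 peaks just inside the limit had 1.49942 to 1.49819 and the 5 just outside 1.49796 to 1.49579, so the limit falls inside a continuous range. The highest value belonged to a peak of 3600 bp on chromosome 9 (chr9:12136051-12139650) with no gene within 5 kb. Its log2 ChIP values were 5.88, 6.18 and 6.05 in WT and 5.67, 6.28 and 5.86 in KO. The 2 genotypes overlapped there. Its WT input held 10 reads (exact 95% Poisson interval 4.80 to 18.4, counting error only) and its KO input 12, which gave an enrichment of 2.71 in WT and 2.35 in KO. The second peak (chr4:150877951-150881400) had a WT enrichment of 2.59 and a KO enrichment of 1.62, its input reads being 17 in WT and 33 in KO. The next peak (chr7:18379651-18389850) rested on more reads, 64 and 86, and stood at 2.44 in WT and 2.15 in KO. Among the 10 highest, the peaks near a named gene were those at Tcfl5, which encodes a transcription factor, at Map3k5, a stress-activated kinase gene, and at the predicted gene Gm15446.

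The chosen peaks were wide. Their median width was 3000 bp (range 1200 to 233100 bp) against 1500 bp in the other peaks, and they covered 5.71 Mb in total. The width moved with the minimum of 10 WT input reads: lists with at least 5 or 20 reads had medians of 1650 and 4350 bp. Of 283 peaks of at least 10 kb that could be chosen, 134 were chosen. The widest, in the GTPase gene Arl15 (chr13:113807101-114040200), spanned 233100 bp and held 2085 WT input reads. Its log2 ChIP value was 12.9 in every library except KO2, where it was 13.2. The authors had matched the libraries to one distribution, after which the highest peaks can share a value. WT enrichment there was 1.89 and KO enrichment 2.08.

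Genes lay closer to the chosen peaks than to the others. A gene was within 5 kb of 476 chosen peaks (47.6%) against 32.2% of the other peaks, and 398 of them overlapped the gene, 44 lay upstream and 34 downstream. The median distance to the start of a protein-coding gene in the GENCODE vM21 annotation was 28150.5 bp, against 163413 bp. Only 16 chosen peaks (1.6%) contained such a start, against 0.611% of the others. Exonic bases were found in 30.9% of the chosen peaks and 10.5% of the others. The chosen peaks were wider, and the part of width in these shares was not tested. Among peaks of at least 10 kb, 3.73% of the chosen and 7.38% of the others contained a start. There, 76.9% and 65.8% had a gene within 5 kb, and 84.3% and 56.4% had exonic bases. The 476 peaks fell at 413 genes, of which 365 had 1 peak, 37 had 2 and 11 had 3 or more.

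Zinc finger genes were the group most often chosen among the gene lists examined, although they were not the majority. They are named here by the symbols Zfp, Zkscan, Zscan or Zbtb with a number, and most encode DNA-binding proteins. Any zinc finger gene with another symbol was counted among the other genes. Of 321 peaks at these genes that could be chosen, 92 were chosen (28.7%), against 3.51% of all peaks that could be chosen. The 92 peaks lay at 80 genes. They were broad, with a median width of 11700 bp. Among peaks of at least 10 kb, 52 of 63 zinc finger peaks were chosen (82.5%), against 51 of 138 peaks at other genes (37.0%) and 31 of 82 peaks without a gene (37.8%). Among peaks under 5 kb the shares were 8.12% at zinc finger genes, 3.36% at other genes and 2.30% without a gene. At 5 to 10 kb they were 39.3%, 16% and 18.2%, so the zinc finger share was higher in each width class. In the KO libraries, which the choice did not use, zinc finger genes also had the highest share of the widest peaks: 73.0%, 52.2% and 34.1% of these 3 classes were among the 1000 highest when KO ChIP was ranked over KO input.

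**Figure D1:**
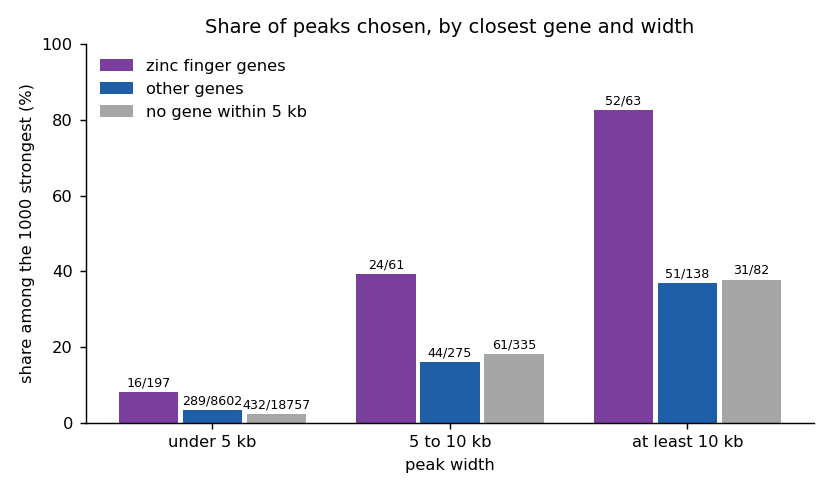
Share of the peaks that could be chosen (vertical axis, percent) which were among the 1000 strongest in WT, by peak width (horizontal axis) and by closest gene (colours); the numbers above the bars give chosen peaks of all peaks in the class. The bar for zinc finger genes is the highest in each width class and reaches 82.5% at 10 kb or more.

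Within zinc finger genes the chosen peaks lay toward the 3′ end, and so did those not chosen. Their median position along the gene was 79.0% for chosen and 72.7% for other zinc finger peaks. In other genes it was 46.7% and 49.7%. Of 87 chosen peaks that overlapped a zinc finger gene found in GENCODE vM21, none covered the start of the gene, 58 (66.7%) covered its end and 80 (92.0%) contained exonic bases. Chosen peaks in other genes covered the gene's end in 15.7% and its start in 6.21%. The zinc finger peaks that were not chosen covered the end in 19.8% and had a median width of 2550 bp. The part of peak width in this difference was not tested. Zfp125 (chr12:20889451-20906850) had a peak of WT rank 18. It lay in a stretch (chr12:20641501-20918700) with no protein-coding gene in GENCODE vM21. Its log2 ChIP values were 9.005, 8.89 and 8.77 in WT and 8.90, 8.98 and 8.91 in KO, so the genotypes overlapped, and its enrichment was 2.27 in WT and 2.84 in KO. Zfp942 (chr17:21918151-21960900), with a peak of 42750 bp, had an enrichment of 2.12 in WT and 1.94 in KO.

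The other gene lists held few chosen peaks. Olfactory receptor genes had 5 of 133, vomeronasal receptor genes 2 of 100 and protocadherin genes 3 of 174, which is 3.76%, 2.00% and 1.72% and close to or under the 3.51% of all peaks. Predicted genes with a Gm number had 45 of 583 (7.72%) and transcripts with a Rik name 43 of 598 (7.19%). Of 45 peaks at imprinted genes 1 was chosen, at Mest, a paternally expressed gene. Among germline genes the chosen peak was at Mov10l1, which acts in the piRNA pathway. Genes of the silencing machinery had 2 chosen peaks of 9, at Cbx3, which encodes the heterochromatin protein HP1 gamma, and at Zfp809, whose product silences retroviruses through TRIM28. Of 58 peaks at genes that the study had named for changes in KO, a list picked partly on these libraries, 7 were chosen, all at Fat1 and Tiam1. No peak at the listed immune or stromal genes was chosen, from 2 and 3 that could be.

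Part of the chosen peaks lay in groups along chromosomes. Joined where neighbours were under 100 kb apart, they formed 718 groups, of which 590 were single peaks and 18 had at least 5. The group with most members spanned chr5:109721401-110134500 and held 15 chosen peaks of 28 that could be chosen, at Zfp605, Zfp932, Gm15446, Gm17655 and 4930522L14Rik. Its median enrichment was 1.91 in WT and 1.93 in KO, where the other 27510 peaks had medians of 0.61 and 0.86. The second, chr2:150109651-150473700, held 13 peaks at Zfp120, Zfp345, Zfp442, Zfp937 and neighbouring genes, with 1.86 in both genotypes. The next, chr13:67468651-67828200, held 11 peaks in a stretch with 12 zinc finger genes in GENCODE vM21, at 1.64 in WT and 1.66 in KO. No peak of these 3 groups was called different between genotypes. A group without zinc finger genes lay at Tiam1, a gene for an activator of the GTPase Rac1. It held 7 peaks on chr16:89878951-90141000, 5 of them at Tiam1, which is the gene with most chosen peaks. The median enrichment of the 7 was 2.01 in WT and 1.94 in KO. One of them, at chr16:89998951-90056550 with no gene within 5 kb, was called lower in KO (log2 values of 11.1, 11.2 and 11.1 in WT and 10.8, 10.9 and 10.8 in KO, difference -0.31, limma adjusted p = 0.0177), a call that was lost without any 1 WT library or KO1. None of the 5 Tiam1 peaks was called, with differences of -0.20 to -0.11, and in 4 of them all KO libraries lay below all WT libraries. That order was found in 32.3% of all chosen peaks and in 10.3% of those that could be chosen. The 5 peaks lay 150 to 600 bp from their nearest neighbours and were measured in the same libraries, so they are not separate observations.

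The share of peaks chosen differed by chromosome. It was lowest on chromosome 14 (22 of 1941 peaks, 1.13%) and chromosome 1 (57 of 2968, 1.92%). It was highest on chromosome 13 (88 of 1501, 5.86%) and chromosome 19 (27 of 383, 7.05%). The list of KO peaks made in the same way took 1.56%, 2.38%, 8.35% and 6.27% of the peaks on these chromosomes.

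The next comparison asked how far the strong WT peaks held in KO. KO enrichment, the log2 KO ChIP value minus that of the KO input, is the same measure in libraries that the choice did not use. The median KO enrichment of the chosen peaks was 1.33, 1.40 and 1.29 in KO1, KO2 and KO3, against 0.88, 0.85 and 0.89 in the other peaks. The chosen peaks stood higher in each KO library, by 0.467 ± 0.0771 (SD, n = 3). All 3 values subtract the same KO input library, so this SD holds the spread of the ChIP libraries and no error of the input. In WT, where the choice set the values, the medians were 1.71, 1.73 and 1.70 against 0.63, 0.63 and 0.64. Of the 1000 peaks, 767, 796 and 736 lay above the median of the other peaks in KO1, KO2 and KO3. Across all peaks that could be chosen, WT and KO enrichment were positively related only at higher depth. Pearson r was -0.34 over 12656 peaks with 10 to 14 WT input reads and -0.06 over 12710 with 15 to 29. It was 0.34 with 30 to 99 reads and 0.64 with at least 100.

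**Figure D2:**
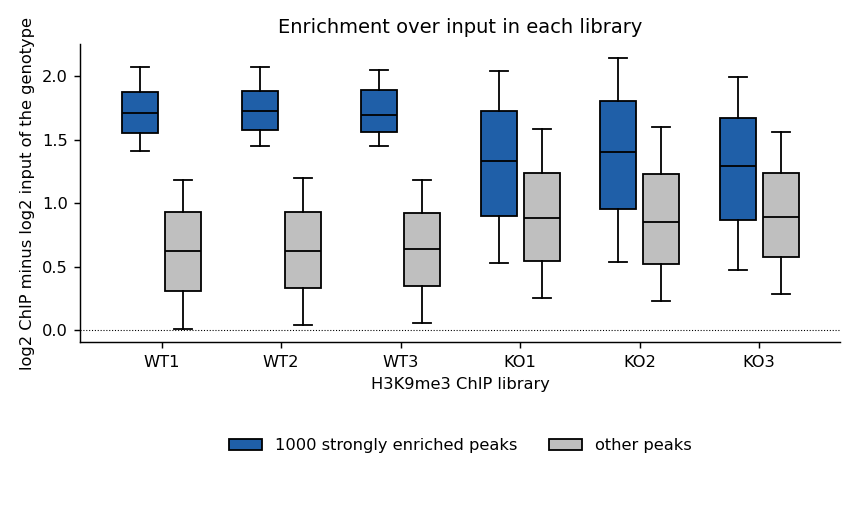
Log2 ChIP value minus log2 input of the same genotype (vertical axis) for the 1000 chosen peaks (blue) and the other 27510 peaks (grey) in each ChIP library (horizontal axis). Boxes give the quartiles and median, whiskers the 10th and 90th percentiles; the chosen peaks lie higher in all 6 libraries, with medians near 1.71 in WT and near 1.34 in KO.

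The input libraries moved with this result. Median input reads per chosen peak were 18 for WT and 24 for KO, whereas the other peaks had 15 and 14. KO input exceeded WT input in 66.9% of the chosen peaks and 28.2% of the others. The 1000 peaks summed to 41969 WT and 44170 KO input reads, within totals of 733413 and 691770 over all peaks. A peak with few WT input reads had a higher enrichment by the rule, and the part of this in the WT list was not tested. Measured against the WT input in place of the KO input, the median KO enrichment of the chosen peaks was 1.54. The choice had used the WT input, so this median is not independent of it.

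A KO list was made by the mirrored rule, from the 26344 autosomal peaks with at least 10 KO input reads. It shared 344 peaks with the WT list, which is 34.4% of each, and its lowest enrichment was 1.52. A further 36 chosen peaks reached that value but had under 10 KO input reads. When 1 KO library at a time made the KO list, 291, 316 and 294 peaks were shared. With KO ChIP values set against the WT input, the shared share was 58.5%. The choice had used that input, so this share is not independent of it.

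**Figure D3:**
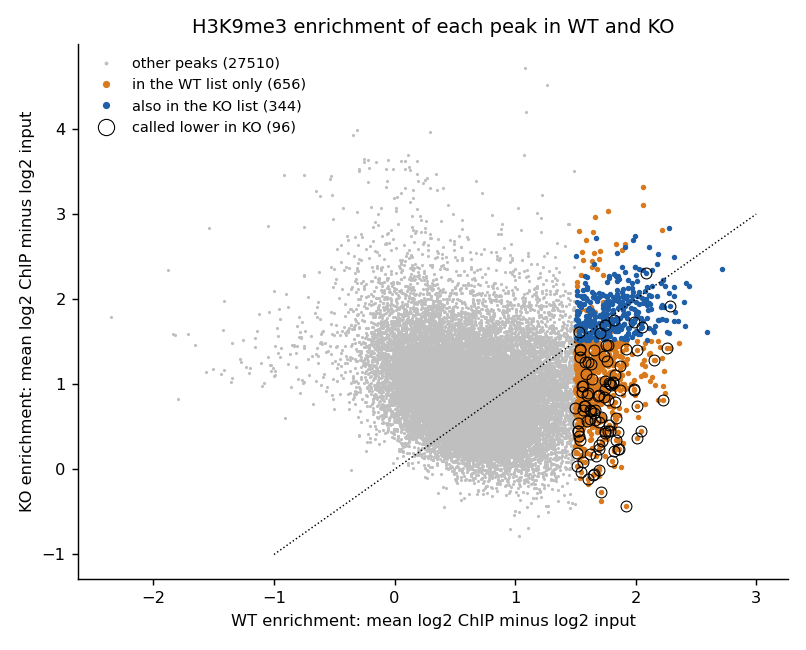
WT enrichment (horizontal axis) against KO enrichment (vertical axis), both in log2 units, for each of the 28510 peaks that could be chosen; the dotted line marks equal values. The 344 shared peaks (blue) lie around the line, while the 656 peaks of the WT list only (orange) are placed mostly under it by the limits of the 2 lists; circles mark the 96 peaks called lower in KO.

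The share that held rose with depth, width and rank. For comparison, 3.41% of all peaks that could be chosen were in the KO list. Of 349 chosen peaks with 10 to 14 WT input reads 15.8% were in the KO list, of 334 with 15 to 29 reads 28.1%, of 221 with 30 to 99 reads 49.8% and of 96 with at least 100 reads 88.5%. By width, it was 7.96% of 201 peaks under 2 kb and 87.3% of 134 peaks of at least 10 kb. By WT rank, it was 67% of the first 100 peaks, 42% of the next 400 and 21.8% of the last 500. Read number and width are tied, since wide peaks collect more input reads. At zinc finger genes 70 of 92 peaks held (76.1%), against 32.03% at other genes and 28.8% without a gene. Below 5 kb, 11 of 16 zinc finger peaks held (68.8%) against 18.7% of peaks at other genes, at a median of 30.5 against 15 WT input reads. From 10 kb the order was the other way, 80.8% at zinc finger genes and 96.1% at other genes. These classes go by symbol, so the other genes may include zinc finger genes. Wide peaks were often in the KO list in general. Of all peaks of at least 10 kb that could be chosen, 73.0% at zinc finger genes and 52.2% at other genes were in it. Under 5 kb these shares were 15.2% and 3.14%.

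**Figure D4:**
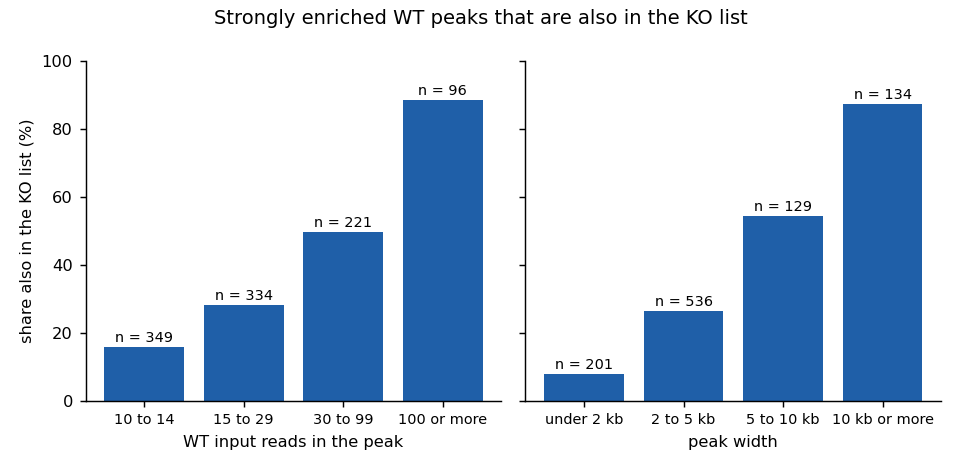
Share of the chosen WT peaks that were also in the KO list (vertical axis, percent), by WT input reads (left) and by peak width (right); n is the number of chosen peaks in each bar. The share rises from 15.8% to 88.5% with input reads and from 7.96% to 87.3% with width.

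H3K9me3 itself was compared between KO and WT with limma on the deposited log2 ChIP values of all 53761 peaks (two-sided, Benjamini-Hochberg adjusted p under 0.05). The list was chosen on the same WT values, so these counts are a description and no test. Of the chosen peaks, 96 were called lower and 2 higher in KO, where 0.863% and 0.796% of all peaks, and 1.4% and 1.28% of the peaks that could be chosen, were called. In either direction 1.66% of all peaks were called. All 3 KO libraries lay below all 3 WT libraries in 323 chosen peaks and above them in 46, against 8.42% and 7.2% of all peaks; among those that could be chosen, 10.3% lay below. The median log2 difference, KO minus WT, was -0.15. The calls relied on the moderated variance following a trend with the mean level. Without that trend, 1 peak was called lower and none higher.

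The count followed the libraries that made the list. In the KO list, 9 peaks were called lower and 88 higher. In a list chosen on all 6 ChIP libraries and both inputs, 39 were called lower and 14 higher, and its median log2 difference was -0.04. Values that do not share libraries with the choice came from lists made on 1 WT library, with KO tested against the remaining 2. Then 39, 43 and 41 of 1000 peaks were called lower and 5, 2 and 2 higher, where 0.454%, 0.370% and 0.471% of all peaks were called lower and 0.703%, 0.690% and 0.694% higher. The median log2 difference in these lists was -0.11, -0.09 and -0.10, against -0.01 in all peaks that could be chosen. In lists chosen without 1 WT library, the mean log2 value was 6.21, 6.26 and 6.24 in the library left out and 6.08, 6.12 and 6.11 in KO (SD over KO libraries 0.0585 to 0.0638, n = 3). Each left-out WT library lay above the KO mean, by 0.126, 0.142 and 0.127, and above each KO library.

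The peaks with the largest decreases were 1350 to 4800 bp wide. At 3110057O12Rik (chr3:40925401-40927650) the log2 values were 5.67, 5.67 and 5.85 in WT and 4.34, 4.03 and 4.42 in KO. The genotypes did not overlap, and the difference was -1.46 (SE 0.213, limma adjusted p = 3.96e-06). It was also the peak called without the variance trend. Downstream of Scd4, a stearoyl-CoA desaturase gene (chr19:44324101-44328900), the values were 6.80, 6.82 and 7.04 in WT and 5.56, 5.58 and 5.67 in KO. The KO libraries were all lower, by -1.28 (SE 0.153, limma adjusted p = 3.02e-08), and the input reads were 33 and 32. Peaks at Gm20499, Styxl1, Stk19, U6, 2610002I17Rik and Slc2a13 and 2 peaks without a gene completed the 10 largest, with differences of -1.46 to -1.14. At Slc2a13 the KO values were 5.24, 3.84 and 5.41, KO2 being far lower than the other two, and the call was lost without KO2.

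Other called decreases lay at genes with known roles. In Trim24, a cofactor gene related to TRIM28, both chosen peaks were called lower, by -0.88 and -0.61. At Cbx3, upstream of the gene (chr6:51487651-51489300), the values were 5.30, 5.50 and 5.62 in WT and 4.92, 4.20 and 4.42 in KO, a difference of -0.96 (SE 0.220, limma adjusted p = 0.00701) that was not called without WT3 or without KO2. In Casp8, which encodes a caspase of the cell death pathway, 1 of 2 chosen peaks was called lower, by -0.72, and was not called without WT1 or without WT2. In Smyd3, a methyltransferase gene, both were, by -1.02 and -0.77. The first was called whichever library was left out, while the second was called in 3 of 12 other fits and was lost with the replicate block, with centred or quantile-normalized values and without any 1 library other than KO1.

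Of the 92 zinc finger peaks, 6 were called lower and none higher, and their median log2 difference was -0.06. Among all chosen peaks, 9.6% were called lower. Of the 321 zinc finger peaks that could be chosen, 11 were called lower and 12 higher. The list was chosen on WT values, and the part of that choice in the direction was not tested. The 6 were at Zfp445, Zfp780b, Zfp809, Zfp599, Zfp180 and Zfp27. At Zfp445, known as a regulator of genomic imprinting (chr9:122855551-122863050), the values were 7.99, 7.90 and 8.05 in WT and 7.23, 7.05 and 6.82 in KO, a difference of -0.95 (SE 0.122, limma adjusted p = 1.99e-07). The call was lost at Zfp180 without WT2, at Zfp599 without WT1 or WT3, and at Zfp27 without any 1 WT library or KO1. Values of 3 neighbouring genes on chromosome 9 follow, whose differences from each other were not tested. Zfp809 (chr9:22233451-22243650) had 8.12, 8.29 and 8.14 in WT and 7.53, 7.58 and 7.33 in KO, a difference of -0.71 (SE 0.113). Zfp599, next to it, had -0.49 (SE 0.111), and Zfp810 (chr9:22272001-22286850) had -0.16 (SE 0.0972, limma adjusted p = 0.608), its values of 8.87, 8.97 and 8.93 in WT overlapping those of 8.89, 8.77 and 8.63 in KO.

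The 2 peaks called higher were in Fat1 and Fam83b. Fat1 encodes an atypical cadherin. Its peak at chr8:44939701-44970750 had 9.72, 9.54 and 9.79 in WT and 10.3, 10.3 and 9.88 in KO, a difference of 0.46 (SE 0.0933, limma adjusted p = 0.00139). A second chosen Fat1 peak (chr8:45000751-45056100) had 0.22 (limma adjusted p = 0.203). Fam83b encodes a signalling scaffold. Its peak (chr9:76490551-76493250), nearly all of it exonic in GENCODE vM21, had 5.38, 5.84 and 5.77 in WT and 6.36, 6.33 and 6.19 in KO, a difference of 0.63 (SE 0.167, limma adjusted p = 0.0335). Its enrichment over input nevertheless went from 2.21 in WT to 1.43 in KO with 11 WT and 29 KO input reads. Neither call was kept when each library in turn was left out: Fat1 was not called without WT2 or KO1, and Fam83b was not called without WT1, WT3, KO1 or KO2.

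**Figure D5:**
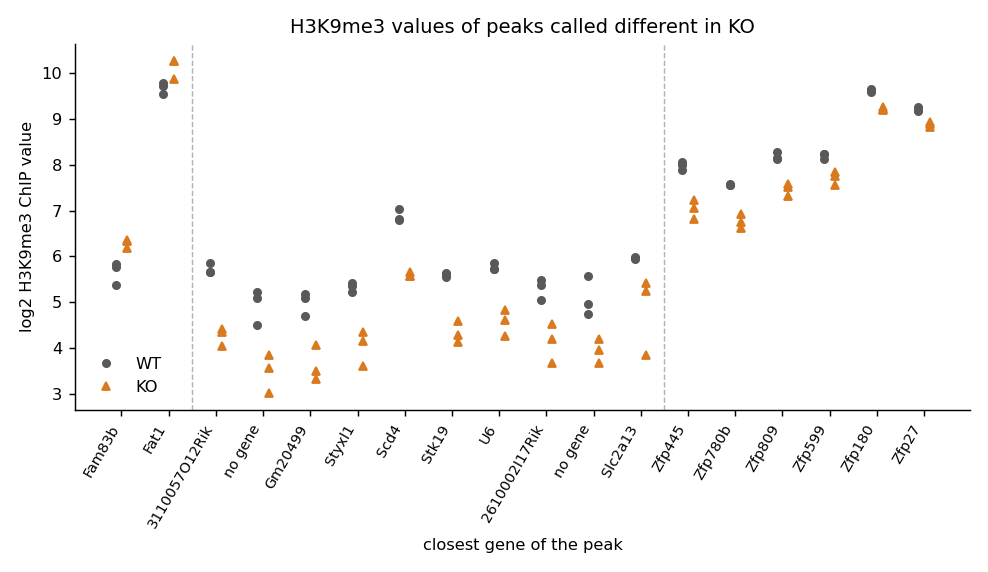
Log2 H3K9me3 ChIP values (vertical axis) of WT (grey circles) and KO (orange triangles) libraries at chosen peaks named by their closest gene: the 2 called higher (left), the 10 largest decreases (middle) and the 6 zinc finger peaks called lower (right). The peaks on the left and in the middle were picked for having no overlap of the genotypes, and the KO values of Slc2a13 are spread most widely.

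Of the 96 calls of lower H3K9me3 in KO, 37 were made in every fit that left out 1 library.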

How the data were processed

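H3K9me3 ChIP-seq was analysed in 3 WT and 3 KO libraries and 1 input of each genotype. Per the submitters' notes, reads were trimmed with Trim Galore 0.6.1 and mapped to GRCm38 with Bowtie2 2.3.2. The labels and the study's methods differ on sequencing platform, read layout and the Trim Galore version. Per the methods, reads of mapping quality under 20 and duplicates were removed, and MACS peaks (fragment size 300 bp, threshold 1e-05) were called by the authors once, on the pooled ChIP libraries with the WT and KO inputs as background. The deposited values are log2 read counts per peak. The authors matched the ChIP libraries to one distribution, so library depth and overall level were removed. Input values were whole reads on the log2 scale (largest relative error 6.3e-07). A second table, which holds the authors' own comparison of KO with WT, was not used.

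Peak choice, gene lists and named peaks were set with earlier results of these data known. Named were the 10 highest peaks, the 5 on each side of the limit, the 10 largest changes each way among calls without overlap of the genotypes, extremes of width and KO enrichment, genes and groups with most peaks, and members of the lists. Others named here, in particular Trim24, Casp8, Smyd3 and Zfp810, were chosen after their values were seen. KO was compared with WT by limma 3.58.1 (R 4.3.3) with a mean-variance trend. The design foresaw this for log2 values, which are not counts. Reads per peak, recovered from the steps between low values, had medians of 45 to 68.5 per library over the chosen peaks, and intervals cover counting error only. The limma script was tested on simulated data. Closest genes are the authors' annotation within 5 kb; positions within genes are from GENCODE vM21, where 469 of 476 gene IDs matched. Sequence features were read from RefSeq GRCm38. Alternatives are given at the end.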

Additional observations from a re-analysis of the deposited data

How the results depend on the processing

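Over all peaks, 464 were lower and 428 higher in KO, and 96 lower and 2 higher among the chosen peaks. Without a variance trend these counts were 15 and 112, and 1 and 0. With input subtracted from ChIP, which lets a single input library per genotype act on all 3 ChIP libraries, they were 6512 and 9361, and 299 and 12. At adjusted p under 0.01, 221 of all peaks and 60 of the chosen were lower, and 1 chosen peak was higher. With a log2 difference of at least 1, 200 and 21 were lower and no chosen peak was higher (0). Leaving out 1 library gave 199 to 453 lower of all peaks, and 55 to 91 lower and 0 to 5 higher of the chosen. Without WT1, WT2 or WT3 the lower counts were 244, 199 and 253 over all peaks and 55, 56 and 62 over the chosen. A mean level of at least 4, centring and quantile normalization left the counts within 1.5 times. With the replicate block there were 93 lower and 2 higher. Same-numbered libraries hardly deviated together (r = -0.00126, 0.0191 and 0.0164), though number 2 and number 3 each correlated best with their own number. These values cannot decide whether same-numbered libraries share more than a number.

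Lower and higher calls were 114 and 6 in a list with at least 20 WT input reads, 45 and 78 with at least 50 (only 865 peaks have so many reads, so all were taken with no choice by enrichment), 39 and 14 in the list of all libraries and inputs, 56 and 1 in the 500 highest and 163 and 6 in the 2000 highest. In alternatives added after seeing the data they were 9 and 88 in the KO list, and 39 and 5, 43 and 2, and 41 and 2 in lists made by 1 WT library and tested without it. The share also in the KO list (34.4%) was 23% with at least 5 WT input reads, 23.6% with at least 50, 61.6% in the list of all libraries, 32.2% in the 2000 highest, 58.5% with KO set against WT input, 32.3% to 33.8% when the choice left out 1 WT library and 32.8% to 33.8% without 1 KO library. The median KO enrichment (1.32) was 1.16, 1.13, 1.61, 1.11 and 1.54 under the first 5 of these, in the same order, and 1.52 in the 500 highest. The list of all libraries was chosen partly on KO values, so its share and median are partly set by the choice. KO set against WT input is not independent either, since the choice had used that input. The share at zinc finger genes ranged from 5.85% to 12.2% over these lists, against 9.2%. The median width (3000 bp) was 1650, 4350 and 7650 bp with at least 5, 20 and 50 WT input reads. The share with a gene within 5 kb (47.6%) was 41.8%, 52.8% and 58.5% in these 3 lists.

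Input depth limits the list: 349 of the 1000 peaks rest on 10 to 14 WT input reads, and each genotype has 1 input library, so the error of the input between animals is unknown. The cause of the differences between settings was not tested.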
